A study of Mus musculus with 6 samples.

Results

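Transcripts of 36 genes of the glutathione, thioredoxin and Nrf2 antioxidant systems were compared between lipid droplet-high (LD-high) and lipid droplet-low (LD-low) microglia of the aged mouse hippocampus. The genes were taken by symbol, and all 36 are among the 14148 genes of the deposited table. The LD-high and the LD-low group each had 3 RNA-seq libraries, made from hippocampal microglia of male C57BL/6 mice aged 18 months. Microglia, the resident macrophages of the brain, were sorted as live CD11b+ cells with low CD45, and the LD-high and LD-low fractions were parted by staining with BODIPY, a dye for neutral lipid. Each sample pooled the hippocampi of 3 mice and held about 10000 sorted cells. The labels give no genetic change and no treatment for either group, and both fractions came from mice of a single strain, age and sex.

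Cells make superoxide and hydrogen peroxide during respiration and, in phagocytes, by a dedicated oxidase. Superoxide dismutases turn superoxide into hydrogen peroxide, which catalase, glutathione peroxidases and peroxiredoxins then remove. Most glutathione peroxidases draw their electrons from glutathione and most peroxiredoxins from thioredoxin, and both carriers are recharged by NADPH-dependent reductases. The transcription factor Nrf2, encoded by Nfe2l2, is bound by Keap1 and sent for degradation in unstressed cells; oxidants and electrophiles loosen that hold, and Nrf2 then induces genes through antioxidant response elements. Nrf2 is set mainly through its protein, so its mRNA alone does not give its activity.

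The 9-base core of the antioxidant response element, TGACNNNGC, was looked for because it is the letters through which Nrf2 is known to act. The search covered both strands of RefSeq promoter windows of the GRCm38.p6 build, each from 250 bases before to 50 bases after a gene's start. Of the 36 genes, 32 had a window, and 7 of these (21.9%) held the core, against 14.0% of all genes with a window and 17.3% of the genes tested here that had one. The core's windows are printed 5′ to 3′ on the strand that carries it, with the core in capitals and 10 bases on each side.
Prdx1, chr4:116685456-116685484, minus strand: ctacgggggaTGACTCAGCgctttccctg
Gclm, chr3:122245413-122245441, minus strand: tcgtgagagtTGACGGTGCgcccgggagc
Txnrd1, chr10:82859104-82859132, minus strand: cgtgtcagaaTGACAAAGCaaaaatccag
Srxn1, chr2:152105542-152105570, minus strand: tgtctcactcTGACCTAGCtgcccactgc
Nfe2l2, chr2:75704885-75704913, minus strand: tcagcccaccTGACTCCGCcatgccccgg
Sod1, chr16:90220696-90220724, minus strand: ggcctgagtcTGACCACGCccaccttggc
Mgst1, chr6:138140461-138140489, minus strand: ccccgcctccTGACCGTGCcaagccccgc

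Prdx1 was the single gene of the 36 that passed the test below, so its whole window is shown, 300 bases on the plus strand of chr4:116685349-116685648, with the core, which lies on the other strand, in capitals.
Prdx1 promoter: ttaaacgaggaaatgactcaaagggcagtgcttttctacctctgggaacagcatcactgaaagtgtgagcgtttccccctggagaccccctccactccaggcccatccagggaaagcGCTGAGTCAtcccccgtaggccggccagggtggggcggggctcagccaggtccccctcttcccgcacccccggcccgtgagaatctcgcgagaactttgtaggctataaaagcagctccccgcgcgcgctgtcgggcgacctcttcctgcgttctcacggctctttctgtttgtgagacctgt
Holding the core did not go with a larger log2 change: the median was 0.20 over the 6 tested genes with it and 0.19 over the 24 tested genes with a window and no core. A match shows letters and not binding, and elements farther from the start lie outside these windows.

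The libraries held between 15895576 and 38489448 reads in genes, and values are normalized counts, that is, reads divided by a size factor per library. The microglial markers P2ry12, Tmem119, Cx3cr1, Sall1, Fcrls, Olfml3 and Csf1r were abundant in all 6 libraries. The lowest of these 7, Sall1, had 26975 to 29034 normalized counts in LD-high and 26486 to 27612 in LD-low libraries. P2ry12 had 186721 to 211903 normalized counts in LD-high and 197187 to 206611 in LD-low libraries. Cx3cr1 differed most of the 7, with 96974 to 137266 normalized counts in LD-high and 132232 to 149132 in LD-low libraries. Its log2 change was -0.34 ± 0.11 (SE), with an adjusted p of 0.115 by limma and 0.0320 by DESeq2. The largest upward change of the 7 was that of Fcrls, 0.12 ± 0.08 (SE, limma adjusted p 0.406). The groups also differed in traces of other cells. Of 9 neutrophil markers 6 were listed, and all 6 had 0 reads in each LD-high library against a summed 1220 to 4523 normalized counts in LD-low libraries. The 12 choroid plexus epithelium markers summed to 1738 to 5718 normalized counts in LD-high and 372 to 1847 in LD-low libraries. In such bulk samples, fewer cells of a type and less RNA per cell cannot be told apart.

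The 36 genes spanned about 3 orders of magnitude in level. Scaled to the longest annotated coding transcript, the highest was Gpx1, a selenium-dependent glutathione peroxidase of cytosol and mitochondria, at 7188 ± 849 normalized counts per kb in LD-high and 6322 ± 736 in LD-low libraries (SD, n = 3 each, as in all that follow). Nfe2l2 came next at 5484 ± 205 normalized counts per kb in LD-high and 4742 ± 424 in LD-low libraries. The autophagy receptor gene Sqstm1, whose protein binds Keap1, followed at 3477 ± 148 in LD-high and 3059 ± 67.2 in LD-low libraries. At the low end, Slc7a11, the cystine import subunit that feeds glutathione synthesis, had 7.33 ± 1.84 normalized counts per kb in LD-high and 5.005 ± 2.38 in LD-low libraries. Nqo1, a quinone reductase often used as an Nrf2 target, was as low, at 7.94 ± 3.57 in LD-high and 5.22 ± 3.59 in LD-low libraries. Mgst1, Mgst2, Glrx3 and Gpx7 lay in the same low range, and the other 30 genes averaged at least 50.6 normalized counts per kb in both groups.

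**Figure D1:**
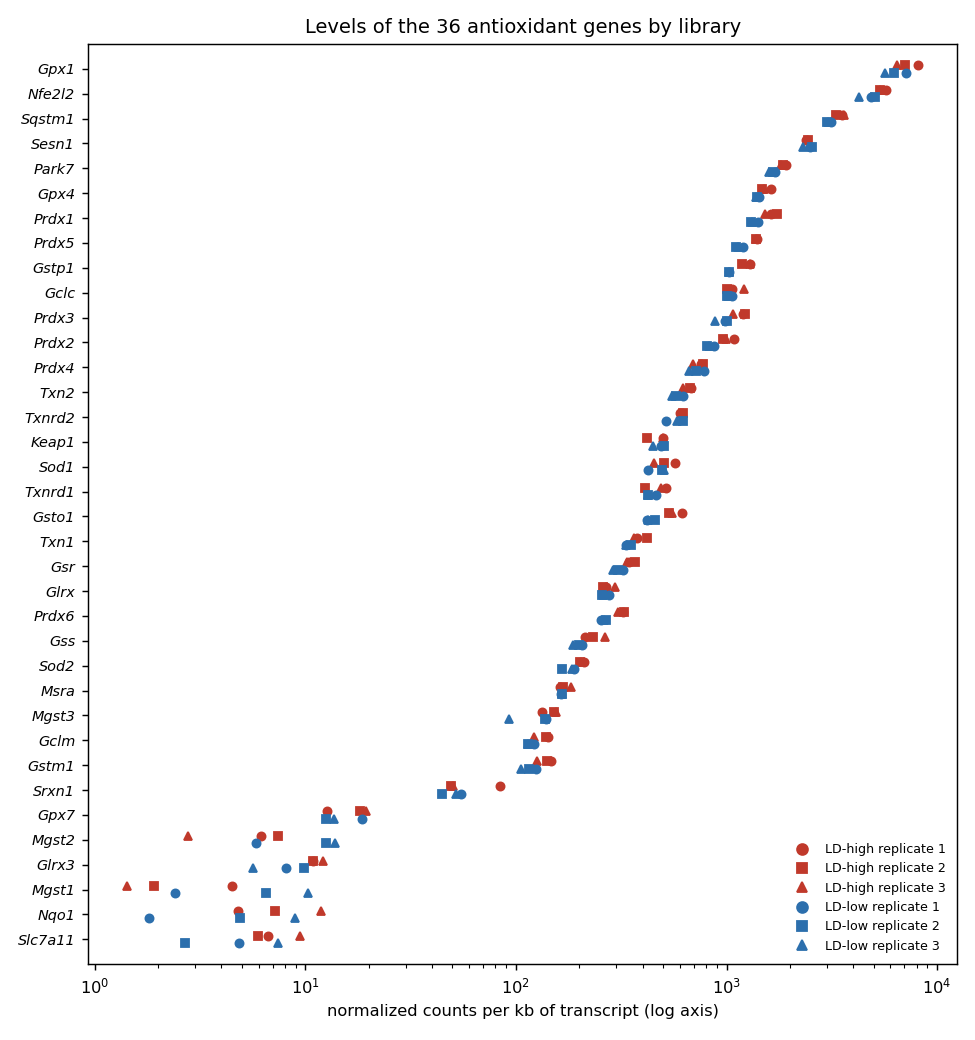
Normalized counts per kb of the longest annotated coding transcript for the 36 antioxidant genes, on a log axis, with a point for each library (red LD-high, blue LD-low, shape for the replicate). Gpx1, Nfe2l2 and Sqstm1 are highest, and Slc7a11, Nqo1, Mgst1, Mgst2, Glrx3 and Gpx7 lie apart at the low end, near or below 20 normalized counts per kb.

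Setting LD-high against LD-low microglia asks whether cells that hold many lipid droplets carry other transcript levels. Most of the antioxidant genes lay slightly higher in LD-high microglia, but the differences were small and 1 gene, the peroxiredoxin Prdx1, rose past the threshold. Of the 34 genes with enough reads to be tested, 1 passed upward and 0 downward by limma with Benjamini-Hochberg adjustment over all 11624 genes tested. In that test 1.53% of all genes passed upward and 1.82% downward. Unadjusted, 11 of the 34 had a p under 0.05, all with LD-high above (32.4%), against 9.68% of all tested genes in that direction and 19.8% in either. The log2 change was above 0 for 32 of the 34, with a median of 0.19, against 48.7% of all tested genes above 0 and a median of -0.01.

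All 3 LD-high libraries lay above all 3 LD-low libraries for 18 of the 34 genes, and the reverse held for 0. Over all tested genes the corresponding shares were 12.7% and 11.7%. Among the 9537 genes averaging 100 normalized counts or more, a level chosen after the values were seen, 1.81% passed upward and 14.5% had all LD-high libraries above, while 17 of the 30 antioxidant genes at that level were without overlap. Together the 36 genes took 0.251%, 0.247% and 0.249% of the reads in LD-high libraries (replicates 1, 2 and 3), against 0.229%, 0.235% and 0.224% in LD-low libraries. These shares do not overlap, and they do not depend on the size factors. They weigh most the genes with the most counts, namely Nfe2l2, Sqstm1, Sesn1 and Gpx1. How often the shares of other sets of genes lie apart was not tested.

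**Figure D2:**
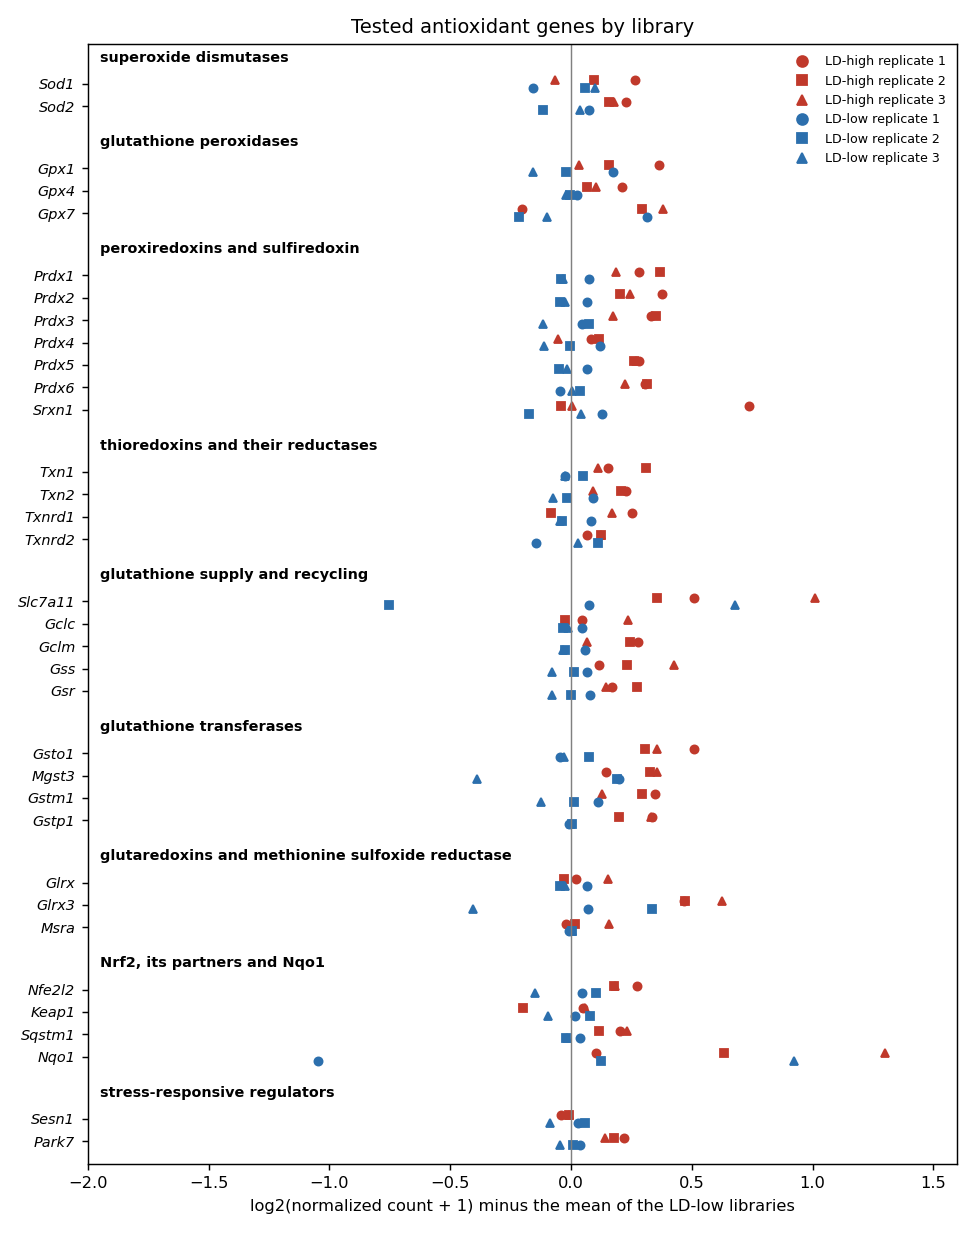
Each tested antioxidant gene by role, as log2(normalized count + 1) in every library minus the mean of the LD-low libraries (red LD-high, blue LD-low, shape for the replicate). Red points lie mostly right of the blue ones among peroxiredoxins and glutathione transferases, while Keap1, Sesn1, Glrx, Msra and Prdx4 show mixed colours around 0.

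**Figure D3:**
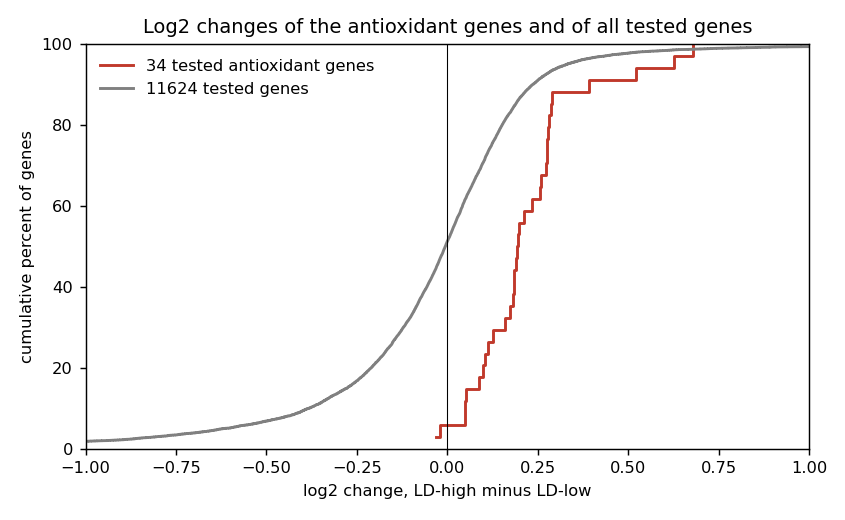
Cumulative percent of genes by log2 change (LD-high minus LD-low) for the 34 tested antioxidant genes (red) and all 11624 tested genes (grey); changes beyond 1 in size are off the axis. The red curve crosses its middle at 0.19 and the grey one at -0.01.

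The call of Prdx1 was close to the threshold and was lost when any 1 of 5 libraries was left out (adjusted p between 0.0735 and 0.175); it held without LD-low replicate 1 (adjusted p 0.0417). Of the 36 genes, DESeq2 on the recovered reads called 5 (Prdx1, Prdx2, Prdx3, Prdx5 and Gsto1), where 3.12% of all genes passed upward and 2.72% downward. edgeR's quasi-likelihood test called 1, Prdx1, where 1.44% of all genes passed upward and 1.81% downward.

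Peroxiredoxins, which reduce peroxides through a reactive cysteine, had 1 of 7 genes past the test, counting Srxn1. Without overlap between the groups were 5 of the 7, and the median log2 change was 0.27. Over all tested genes, 1.53% passed upward and 12.7% had every LD-high library above every LD-low library. Prdx1, a cytosolic peroxiredoxin (chromosome 4, 116358149 to 116373427 in NCBIM37), had 3746, 3987 and 3510 normalized counts in LD-high libraries, against 3246, 2993 and 3018 in LD-low libraries. Every LD-high library lay above every LD-low library. Its log2 change was 0.28 ± 0.07 (SE, adjusted p 0.0481), or 1.21-fold.

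Prdx5, found in mitochondria, peroxisomes and cytosol, had 1762, 1737 and 1746 normalized counts in LD-high libraries and 1518, 1400 and 1430 in LD-low libraries. The groups did not overlap, and its log2 change of 0.27 ± 0.08 had an adjusted p of 0.0617. The 3 LD-high libraries of Prdx5 were almost equal. On the other strand its exons share 409 bases with Trmt112, or 19.1% of their length, and reads there cannot be assigned to either gene.

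Prdx3, the mitochondrial peroxiredoxin, had 1775, 1805 and 1593 normalized counts in LD-high libraries, against 1456, 1486 and 1302 in LD-low libraries. The LD-high libraries all lay above the LD-low libraries. Prdx2, a cytosolic enzyme, had 1747, 1551 and 1594 normalized counts in LD-high libraries, against 1410, 1307 and 1325 in LD-low libraries. Prdx6, which also acts on oxidized phospholipids, had 773, 776 and 730 normalized counts in LD-high libraries, against 606, 641 and 627 in LD-low libraries. For both, the lowest LD-high library lay above the highest LD-low library. Prdx2 had a log2 change of 0.27 ± 0.08 (adjusted p 0.0772), Prdx3 one of 0.29 ± 0.08 (adjusted p 0.0780) and Prdx6 one of 0.28 ± 0.09 (adjusted p 0.116). None of these 3 passed in the reported limma test.

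Prdx4, the secretory pathway peroxiredoxin, had 753, 769 and 685 normalized counts in LD-high libraries and 771, 708 and 657 in LD-low libraries. Its groups overlapped, and the log2 change was 0.05 ± 0.10 (95% interval -0.17 to 0.26, adjusted p 0.841). The summed level of the other 5 peroxiredoxins was 13.02, 12.8 and 13.4 times that of Prdx4 in LD-high libraries, against 10.7, 11.1 and 11.7 times in LD-low libraries. These ratios do not overlap. Prdx4 was set against the others after the values were seen, so no test is given.

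Srxn1, the sulfiredoxin that repairs over-oxidized peroxiredoxins, had 237, 138 and 142 normalized counts in LD-high libraries and 155, 126 and 146 in LD-low libraries. Replicate 1 alone was high among the LD-high libraries, while the other two lay within the LD-low range. The log2 change was 0.23 ± 0.22 (adjusted p 0.584), and without LD-high replicate 1 it was -0.02.

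**Figure D4:**
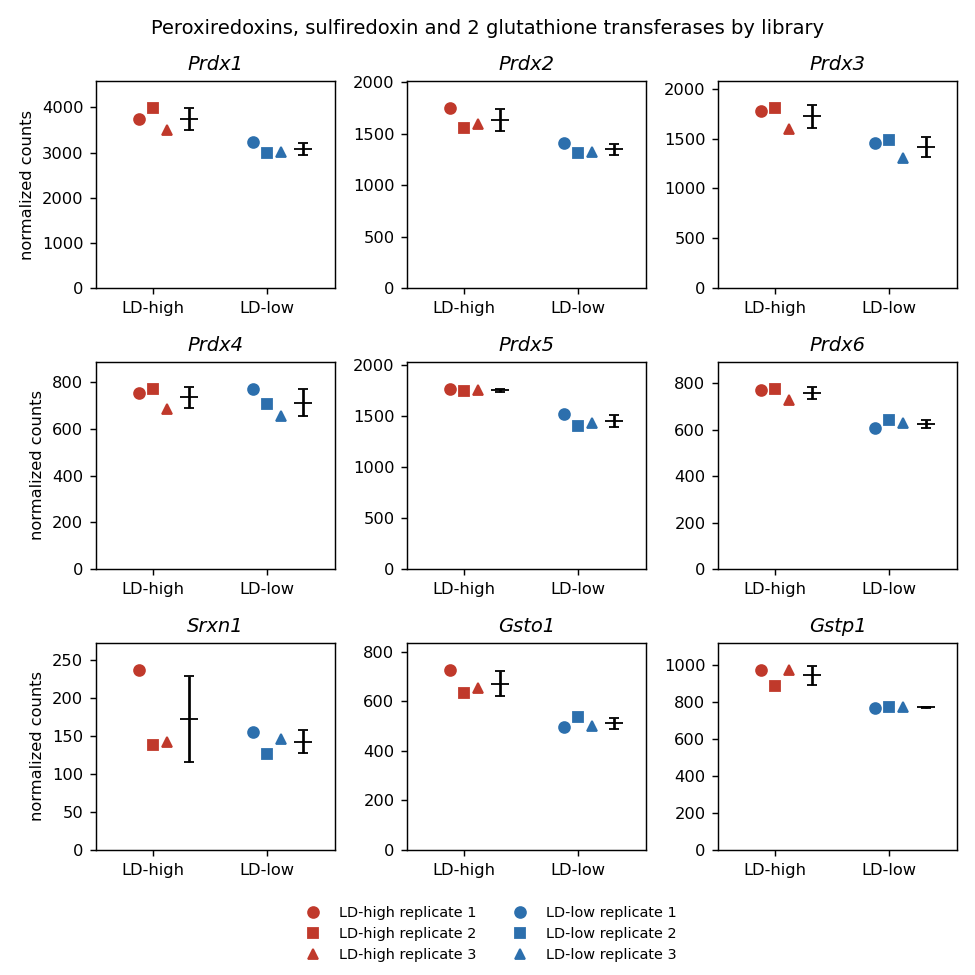
Normalized counts of the 6 peroxiredoxins, Srxn1, Gsto1 and Gstp1 in each library, LD-high on the left and LD-low on the right, with the mean and SD of 3 libraries in black; each vertical axis starts at 0. Prdx1, Prdx2, Prdx3, Prdx5, Prdx6, Gsto1 and Gstp1 show no overlap, Prdx4 overlaps fully, and Srxn1 is high in LD-high replicate 1 only.

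Glutathione transferases attach glutathione to reactive molecules or pass electrons from it. Among those of the 36 genes above 100 normalized counts, the largest log2 change belonged to Gsto1, an omega-class transferase (chromosome 19, 47929460 to 47939280 in NCBIM37). It had 728, 633 and 654 normalized counts in LD-high libraries, against 495, 538 and 502 in LD-low libraries. The groups were well apart, and the log2 change of 0.39 ± 0.10, or 1.31-fold, had an adjusted p of 0.0543.

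Gstp1, the pi-class transferase, had 977, 888 and 975 normalized counts in LD-high libraries, against 770, 776 and 775 in LD-low libraries. The LD-low libraries were almost equal, and all 3 LD-high libraries lay above them. Its log2 change was 0.29 ± 0.09 (adjusted p 0.0893). Its transcript matched 2 further places in the genome at 95% identity or more, so its reads can be split among near-identical copies.

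The mu-class Gstm1, which has 1 such copy, differed by 0.26 ± 0.17 on the log2 scale (adjusted p 0.424). The microsomal Mgst3 differed by 0.28 ± 0.20 (adjusted p 0.471). Mgst1, a microsomal transferase, had 7, 2 and 1 reads in LD-high libraries and 4, 7 and 13 in LD-low libraries. Mgst2 had 5, 4 and 1 reads in LD-high libraries, against 5, 7 and 9 in LD-low libraries. Both were too low to be tested, and they were the sole genes of the 36 left out. LD-low replicate 3, with the most Mgst1 reads, also held the most of the 6 neutrophil markers (4523 normalized counts), and the part of neutrophil RNA in Mgst1 was not tested.

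Glutathione itself is made from cystine, imported by Slc7a11, through glutamate-cysteine ligase (Gclc and Gclm) and glutathione synthetase (Gss), and Gsr recycles its oxidized form. None of these 5 passed, and all had log2 changes above 0. Gsr had 921, 987 and 903 normalized counts in LD-high libraries, against 864, 816 and 774 in LD-low libraries. The groups did not overlap, and its log2 change was 0.20 ± 0.09 (adjusted p 0.251).

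Gss had 419, 455 and 519 normalized counts in LD-high libraries, against 405, 390 and 366 in LD-low libraries. Its groups also lay apart, with a log2 change of 0.26 ± 0.12 (adjusted p 0.253). Genes on the opposite strand share parts of its exons, up to 6.72% of their length for Gm14256.

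Gclm, the modifier subunit, had 687, 670 and 593 normalized counts in LD-high libraries, against 589, 555 and 553 in LD-low libraries. Gclc, the catalytic subunit, had 3627, 3458 and 4144 normalized counts in LD-high libraries and 3630, 3433 and 3483 in LD-low libraries. The groups of Gclm did not overlap, though LD-high replicate 3 lay just above LD-low replicate 1, while Gclc was high in LD-high replicate 3 only. The log2 changes were 0.20 ± 0.10 for Gclm (adjusted p 0.312) and 0.09 ± 0.08 for Gclc (95% interval -0.08 to 0.25, adjusted p 0.563). The ratio of Gclc to Gclm counts was 5.28, 5.16 and 6.99 in LD-high libraries and 6.16, 6.18 and 6.30 in LD-low libraries, which overlapped.

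Slc7a11 had 61.1, 54.9 and 86.8 normalized counts in LD-high libraries and 44.9, 24.9 and 68.7 in LD-low libraries. LD-low replicate 3 lay above 2 of the LD-high libraries, and the log2 change of 0.63 ± 0.36 did not pass (adjusted p 0.348). At 23 to 82 reads per library its interval was wide, from -0.14 to 1.39.

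Thioredoxins carry electrons to peroxiredoxins, and thioredoxin reductases, which are selenoproteins, recharge them. The mitochondrial thioredoxin Txn2 had 1394, 1374 and 1267 normalized counts in LD-high libraries and 1269, 1178 and 1130 in LD-low libraries. Its groups touched, since LD-low replicate 1 lay just above LD-high replicate 3, and its log2 change was 0.17 ± 0.08 (adjusted p 0.268). The cytosolic Txn1 had 395, 441 and 384 normalized counts in LD-high libraries, against 349, 368 and 349 in LD-low libraries. Its groups lay apart, with a log2 change of 0.19 ± 0.12 (adjusted p 0.393). Neither reductase passed: the cytosolic Txnrd1 had a log2 change of 0.11 ± 0.09 and the mitochondrial Txnrd2 one of 0.10 ± 0.09 (adjusted p 0.528 and 0.550), both with overlapping groups.

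Of the glutathione peroxidases, Gpx1 had 6866, 5948 and 5450 normalized counts in LD-high libraries and 6020, 5258 and 4785 in LD-low libraries. LD-low replicate 1 lay above 2 of the LD-high libraries, so the groups overlapped, with a log2 change of 0.18 ± 0.09 (adjusted p 0.292). Gpx4, which reduces lipid peroxides in membranes and holds back ferroptosis, had 1614, 1461 and 1499 normalized counts in LD-high libraries, against 1420, 1392 and 1376 in LD-low libraries. Every LD-high library lay above, but the log2 change was 0.13 ± 0.08 (95% interval -0.04 to 0.29, adjusted p 0.389). A near-identical copy elsewhere in the genome matched 73.7% of the Gpx4 transcript at 99.7% identity. Gpx7, a glutathione peroxidase of the endoplasmic reticulum, had 15 to 34 reads per library and a log2 change of 0.16 ± 0.44 (adjusted p 0.887).

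The superoxide dismutases did not pass. Sod2, the mitochondrial manganese enzyme, had 806, 768 and 780 normalized counts in LD-high libraries, against 726, 635 and 707 in LD-low libraries. Its groups did not overlap, and its log2 change was 0.19 ± 0.10 (adjusted p 0.296). Sod1, the copper-zinc enzyme of the cytosol, had 368, 327 and 292 normalized counts in LD-high libraries and 274, 318 and 328 in LD-low libraries, which overlapped (log2 change 0.10 ± 0.14, adjusted p 0.747).

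Glutaredoxins and methionine sulfoxide reductases reverse oxidation of protein thiols and methionines. Glrx3, which also binds iron-sulfur clusters, had 17.9, 17.9 and 20.0 normalized counts in LD-high libraries, against 13.3, 16.2 and 9.29 in LD-low libraries. The groups lay apart, but they rested on 10 to 24 reads per library and the log2 change was 0.52 ± 0.49 (adjusted p 0.591). A copy matching 75.3% of its transcript at 99.0% identity lies elsewhere in the genome, so its count is uncertain. Msra had 302, 309 and 341 normalized counts in LD-high libraries and 304, 306 and 307 in LD-low libraries, with a log2 change of 0.05 ± 0.13. Glrx had a log2 change of 0.05 ± 0.12, and both sets of libraries overlapped (adjusted p 0.871 for Msra and 0.874 for Glrx).

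Nfe2l2 (chromosome 2, 75513570 to 75542698 in NCBIM37) had 14159, 13259 and 13299 normalized counts in LD-high libraries, against 12070, 12577 and 10561 in LD-low libraries. All LD-high libraries lay above all LD-low libraries, and the log2 change was 0.21 ± 0.07 (adjusted p 0.126). Keap1 had 2226, 1870 and 2239 normalized counts in LD-high libraries and 2173, 2269 and 2012 in LD-low libraries. Those groups overlapped, with a log2 change of -0.03 ± 0.09 (95% interval -0.21 to 0.15, adjusted p 0.890), and its sign turned with a GC correction and without LD-high replicate 2 or LD-low replicate 2. The ratio of Keap1 to Nfe2l2 counts was 0.157, 0.141 and 0.168 in LD-high libraries, against 0.180, 0.180 and 0.191 in LD-low libraries, without overlap. That ratio uses the same Nfe2l2 counts, so it is not a separate result, and no test of it is given. Exons of Keap1 share 11.4% of their length with Gm16754 on the opposite strand.

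Sqstm1 had 9425, 8850 and 9610 normalized counts in LD-high libraries, against 8384, 8063 and 8085 in LD-low libraries. Its groups did not overlap, and the log2 change of 0.18 ± 0.06 had an adjusted p of 0.126. A gene on the opposite strand, 3010026O09Rik, shares 17.3% of its exon length. Nqo1 had 10, 10 and 11 reads in LD-high libraries and 4, 7 and 15 in LD-low libraries, too few to set apart (log2 change 0.68 ± 0.70, adjusted p 0.638).

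Park7, whose protein DJ-1 guards against oxidative stress, had 1797, 1746 and 1703 normalized counts in LD-high libraries, against 1584, 1550 and 1495 in LD-low libraries. The groups lay apart, with a log2 change of 0.18 ± 0.07 (adjusted p 0.195). Sesn1, a p53-induced sestrin that restrains mTORC1, had 7535, 7700 and 7699 normalized counts in LD-high libraries and 7905, 8070 and 7286 in LD-low libraries. The LD-high libraries fell within the LD-low range, and the log2 change was -0.02 ± 0.06 (95% interval -0.16 to 0.12, adjusted p 0.910).

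A further 4 lists of the same pathways were measured beside the 36 genes. Over all tested genes, limma called 1.53% upward and 1.82% downward. Of 28 tested other redox enzymes, 1 passed: Cat, the peroxisomal catalase, rose by 0.43 ± 0.07 on the log2 scale, with 4117, 3868 and 4126 normalized counts in LD-high libraries, against 3071, 3090 and 2824 in LD-low libraries (adjusted p 0.00566). The list's median was 0.15, and 20 of the 28 lay above 0. The next smallest p belonged to the transferase gene Gstm4 (0.62 ± 0.21, adjusted p 0.119).

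Other Nrf2 partners and targets went both ways: 12 of 24 lay above 0 with a median of -0.01, and 1 passed. The list pools targets of Nrf2 with its partners and repressors, so this median does not describe the targets alone. The gene that passed was Gsk3b, a kinase that marks Nrf2 for degradation among many other substrates. It fell to 830, 850 and 903 normalized counts in LD-high libraries, against 1061, 1182 and 1073 in LD-low libraries (log2 change -0.36 ± 0.09, adjusted p 0.0407). The call was lost without each of the 6 libraries in turn, with adjusted p values of 0.0562 to 0.171. Bach2, of a family that competes with Nrf2 for DNA, had a log2 change of -0.42 ± 0.11 (adjusted p 0.0543).

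Among 17 NADPH supply genes 0 passed in limma, while edgeR called 0 and DESeq2 called 1, where 3.12% of all genes passed upward. In limma 6 of the 17 had an unadjusted p under 0.05, all with LD-high above, against 9.68% of all tested genes. The list's median was 0.09 and 11 of its genes lay above 0. Rpe, the pentose phosphate epimerase (0.36 ± 0.10, adjusted p 0.0525), and the folate enzyme Mthfd1 (0.28 ± 0.09, adjusted p 0.0862) led them. Of 15 genes for selenoprotein synthesis and other selenoproteins, Sepp1, the secreted selenium carrier, rose by 0.31 ± 0.08. It had 90723, 90690 and 86841 normalized counts in LD-high libraries, against 75900, 71604 and 68621 in LD-low libraries (adjusted p 0.0372, lost when any 1 of 5 libraries was left out, up to 0.169). The list's median was 0.09, and Selo, with the next smallest p, had a log2 change of -0.24 ± 0.08 (adjusted p 0.133).

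**Figure D5:**
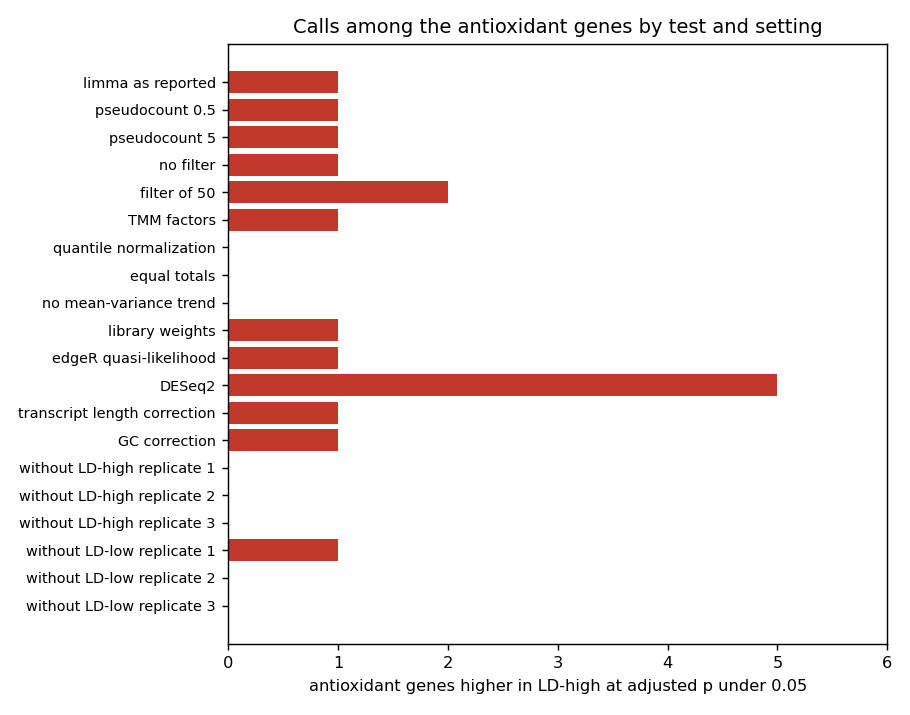
Number of the 36 antioxidant genes higher in LD-high at an adjusted p under 0.05, for the reported limma test and those alternatives that have no replicate block. The reported test called 1, DESeq2 called 5, and 5 of the 6 fits that left out a library called 0.

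Marker sums of some other cells were also higher in LD-high libraries. The 7 oligodendrocyte markers listed, of 8, summed to 5453 to 6013 normalized counts in LD-high and 4648 to 4896 in LD-low libraries. Most of that sum was Cnp (3328 to 3751 normalized counts in LD-high and 2809 to 2972 in LD-low libraries), Mbp (1181 to 1344 in LD-high and 960 to 1191 in LD-low) and Mag (785 to 935 in LD-high and 661 to 685 in LD-low). The myelin gene Mog was near 0, with 0 to 6.68 normalized counts in LD-high and 7.58 to 10.5 in LD-low libraries. The 7 astrocyte markers summed to 7999 to 8878 normalized counts in LD-high and 6500 to 7854 in LD-low libraries. Nearly all of that sum was Slc1a3, while the defining Aqp4 and Gfap were low and went the other way. Aqp4 had 0 reads in each LD-high library, against 0.929 to 7.58 normalized counts in LD-low libraries. Gfap had 1.12 to 9.68 normalized counts in LD-high and 9.82 to 19.5 in LD-low libraries. Choroid plexus markers were lowest among LD-high libraries in replicate 2 (1738 normalized counts), below LD-low replicate 3 (1847). The 8 border macrophage markers summed to 167 to 416 normalized counts in LD-high and 254 to 557 in LD-low libraries. The 4 neuron markers listed, of 6, summed to 79.7 to 99.7 normalized counts in LD-high and 38.6 to 72.5 in LD-low libraries. The 4 endothelial markers listed, of 6, summed to 3830 to 4248 in LD-high and 3846 to 4330 in LD-low libraries. Nearly all of that sum was Slc2a1 and Pecam1, and the 2 low genes went opposite ways. Flt1 had 0 to 5.60 normalized counts in LD-high and 19.6 to 24.2 in LD-low libraries. Slco1a4 had 0 to 8.94 in LD-high and 0 in each LD-low library. The part of these cells in the antioxidant differences was not tested.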

How the data were processed

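RNA-seq of LD-high and LD-low hippocampal microglia was analysed from 1 deposited table. Smart-seq v4 cDNA was made into Nextera XT libraries, per the labels' protocols. FastQC 0.11.4, STAR 2.5.1b, DESeq2 and the mm9 build are named in the submitters' processing notes. The deposited values are a normalized signal: every value came out as whole reads divided by 1 size factor per library (100% within 0.01 reads), so reads and depth were recovered. Each library held 15895576 to 38489448 reads, with size factors of 0.599 to 1.43, and 3 reads correspond to 2.11 to 5.01 normalized counts.

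Genes with at least 10 normalized counts in at least 3 libraries were kept (11624 of 14148) and log2(value + 1) was tested with limma 3.58.1 (trend, R 4.3.3), with Benjamini-Hochberg adjustment over all of them and a threshold of 0.05. Log2 changes are LD-high minus LD-low on that scale, which understates changes of low genes. The steps were tested on simulated data. edgeR 4.0.16 and DESeq2 1.42.0 on the recovered reads, other scalings, filters, corrections and fits leaving out a library were alternatives. Gene coordinates, transcript lengths and exon overlaps come from the NCBIM37 annotation, and near-identical copies from minimap2 2.31 (at least 95% identity over at least 50% of a transcript). The labels give no stranded kit, so opposite-strand overlaps were counted. Promoter windows are RefSeq's, and a protein table was not used here.

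The antioxidant genes, the further pathway lists and the marker lists were chosen with earlier results of these data known. Genes outside the 36 were named as those that passed or had the smallest p of their list. Each sample is labelled as a pool, and the labels do not say whether the pools are separate mice, so a p-value may reflect technical spread alone. Levels per kb use the longest coding transcript, and 22 symbols turned into dates by a spreadsheet were not renamed. A further microglial marker of the list is not reported here.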

Additional observations from a re-analysis of the deposited data

How the results depend on the processing

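The median log2 change of the 34 tested antioxidant genes (0.19) was 0.15 with equal totals, a scaling that moved the median of all genes to -0.05. Of the 36 genes, 2 passed upward with a filter of 50, 5 with DESeq2, and 0 with quantile normalization, equal totals or no mean-variance trend, and 0 to 1 without a library. For all genes (178 higher, 212 lower), the counts were 108 higher with quantile normalization, 118 higher with equal totals, 1 higher and 14 lower with no mean-variance trend, 382 higher and 333 lower with DESeq2, and 17 to 212 higher and 35 to 209 lower without a library. Other redox enzymes had 0 higher with no mean-variance trend. NADPH supply genes had 1 higher with a filter of 50, DESeq2 or the length correction. Selenoprotein genes had 0 higher with no filter or no mean-variance trend, and 0 to 1 without a library. Other Nrf2 partners had 2 lower with no filter, a filter of 50, library weights or the GC correction, 3 with DESeq2, 0 with quantile normalization, no mean-variance trend or the length correction, and 0 to 1 without a library. The DESeq2 calls included Nfe2 (adjusted p 0.00852), with 0 reads in each LD-high library and 18, 2 and 27 in LD-low libraries. Nfe2 was too low for the filter of the reported test. The cause of these changes in count was not tested.

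The sign turned in 8 of 677 combinations of a gene with an alternative, among 6 genes. Srxn1 among them had a log2 change of 0.23 in the reported test, and the others lay between -0.03 and 0.05. The remaining 28 genes kept their direction under every alternative that tested them. These were 20 alternatives per gene, or 19 for Gpx7, Glrx3 and Nqo1. Without a library, Prdx4 ranged from -0.00822 to 0.108, Srxn1 from -0.0183 to 0.370, Glrx from -0.00322 to 0.0863, Msra from -0.00106 to 0.0863, Keap1 from -0.0775 to 0.0550 and Sesn1 from -0.0633 to 0.0104. Keap1 was above 0 without replicate 2 of either group (0.00923 for LD-low) and with the GC correction (0.0193). The GC correction called Prdx5 in place of Prdx1 (Prdx1 adjusted p 0.0621).

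Both groups number their replicates 1 to 3, and the deviations of same-numbered libraries correlated at 0.161, 0.132 and 0.0641, against -0.127 to -0.0171 for other pairs. Every library correlated best with its own number, a hint from the data and not the design, since the labels do not say what a number shares. With the replicate number as a block, 9 antioxidant genes passed upward (Prdx1, Prdx2, Prdx3, Prdx5, Gpx1, Gsto1, Gstp1, Nfe2l2 and Sqstm1, with Gpx1 at an adjusted p of 0.0415), as did 560 of all genes (4.82%), 2 other redox enzymes and 2 NADPH supply genes. Downward, 530 of all genes and 3 other Nrf2 partners passed. Depth limits Mgst1, Mgst2, Nqo1, Glrx3 and Gpx7, which rest on at most 34 reads in any library.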
